A study of Mus musculus with 6 samples.

Results

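Integrins and the proteins of focal adhesions were followed as a set of 37 genes, 13 integrin alpha chains, 8 integrin beta chains and 16 adaptors. The mouse cells were described as sinoatrial node-like cardiomyocytes and carried the label wild type or Shox2 knockout. The genes were chosen by symbol from a list of integrin chains and focal adhesion adaptors. All 37 were among the 30631 genes listed in each library, and all 37 passed the filter on low values, which asked for 3 or more libraries at 10 or above and kept 17034 genes for testing. The list had been drawn up with earlier results of these data in view, and the rule that chose it names Itga1 and Tns3.

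The cells were grown from embryonic stem cell clones, Shox2+/+ or Shox2-/-, kept on feeder fibroblasts from mouse embryos and taken through hanging drops to stage 7+1 days. They were then sorted for CD166, the surface protein encoded by Alcam, and RNA was sequenced from 3 libraries of each label. How the Shox2 allele was made is not given in the sources used here. All 3 titles labelled knockout share the prefix J2, while the 3 labelled wild type each carry a prefix of their own, so a difference between genotypes and one between clones cannot be told apart. No label ties the libraries to separate cultures. The p-values therefore measure the spread between these libraries only, and it may be technical.

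An integrin is a pair of 1 alpha and 1 beta chain that spans the membrane. The alpha chain largely sets which matrix protein is bound, be it collagen, laminin, fibronectin or another ligand, and the beta chain's tail binds talin and kindlin inside the cell. Adaptors such as vinculin, paxillin, parvins and tensins then link the receptor to actin and to kinases. In the heart, beta 1 integrins hold cardiomyocytes to the basement membrane around them.

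Reads assigned to genes numbered 13504683 to 34650564 per library, as recovered from the normalized values, and library 1 of each label was the shallowest. Libraries 1 and 2 labelled wild type were close to each other for this set, with 29 of 37 genes within 0.1 on the log2 scale and the widest gap, 0.47, at Ilk. Shox2 was not lower under the knockout label. Its normalized counts were 89.6, 83.4 and 31.4 under the wild type label and 201, 548 and 373 under the knockout label, so each direction given here is one between labels. The 8 cardiomyocyte markers, among them Tnnt2, Myh6 and Actc1, were present in every library, with summed values of 11041 to 29553 under the wild type label and 14334 to 36663 under the knockout label. Markers of other cell types were present as well. Those of fibroblasts and mesenchyme summed to 372913 to 583884 and 180341 to 279061, and those of smooth muscle to 44670 to 51085 and 40206 to 50555. Such sums rest on different genes and lengths, so they do not give shares of cells. All 5 sinoatrial node markers (Hcn4, Tbx3, Tbx18, Isl1 and Cacna1d, a list added after the data were seen) were above 0 in each library and summed to 1312 to 1479 and 1750.25 to 3216. These 5 did not all go the same way, with log2 changes from -1.18 to 0.91. At an unadjusted p under 0.05 in limma 1 was higher and 1 lower, against 6.92% and 7.23% of all genes. Alcam had a log2 change of -0.47, knockout minus wild type label (limma adjusted p = 0.242). In bulk samples, fewer cells of a type and less RNA per cell cannot be told apart.

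Promoter sequence was at hand in RefSeq (GRCm38.p6) for 27 of the 37 genes. The stretches below show the 150 bases before the annotated start of Itga1 and Tns3, the 2 genes of the set with the lowest p, and of Itga4, the next such gene with an entry. Each is written 5′ to 3′ on the gene's own strand. Capitals mark GGGCGG (the GC box) on either strand.

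Itga1 (chr13:115101965-115102114, minus strand): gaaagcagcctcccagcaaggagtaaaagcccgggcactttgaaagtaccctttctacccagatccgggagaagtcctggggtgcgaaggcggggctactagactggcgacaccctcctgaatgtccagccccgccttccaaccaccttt

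Tns3 (chr11:8664536-8664685, minus strand): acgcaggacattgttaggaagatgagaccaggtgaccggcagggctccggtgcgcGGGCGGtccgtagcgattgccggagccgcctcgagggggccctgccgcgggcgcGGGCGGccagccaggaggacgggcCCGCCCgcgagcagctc

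Itga4 (chr2:79255276-79255425, plus strand): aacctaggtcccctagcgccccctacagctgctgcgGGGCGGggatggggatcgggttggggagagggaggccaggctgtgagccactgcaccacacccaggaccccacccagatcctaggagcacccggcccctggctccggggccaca

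The window before Tns3 held the GC box 3 times, 95, 41 and 17 bases before the start, and that of Itga4 held it 114 bases before the start. These stretches contained no match to the other motifs searched on both strands, so no matches overlapped: TAATTA (the homeodomain core), CATTCC (the TEAD core) and TATAAA (the TATA box). Over the whole 250 bases before the start, 14 of the 27 genes held the GC box, which 32.7% of all 32851 promoters in the table hold. TAATTA was in 0 of the 27, against 4.84% of all promoters. CATTCC was in the windows of Itga10, Itgb1 and Vcl (12.6% of all promoters), and TATAAA in that of Lims1 (12.4%). The 27 genes have 33 promoters between them and were counted by gene, while the shares over all count single promoters. Such shares are not on the same scale and cannot be compared directly.

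The comparison asks which of these genes differ between the libraries labelled wild type and those labelled knockout. Higher in each library labelled knockout than in all 3 of the other label were 3 alpha chains, Itga1 by 2.39-fold, Itga6 by 1.68-fold and Itga7 by 3.81-fold. The alpha chain Itga4 and the adaptor Tns3 lay lower in every library labelled knockout, 1.69-fold and 1.81-fold below the wild type label. Without overlap were also Fermt2 (higher) and Itga2, Itga10 and Itgb6 (lower), 9 of the 37 genes in all (24.3%), against 23.6% of all genes tested, 12.8% higher and 10.8% lower. No gene of the set was called by limma after adjustment over all genes (lowest adjusted p = 0.0954, Itga1), as for 0 of the 17034 genes tested (0%). At an unadjusted p under 0.05 stood 7 of the 37 genes (18.9%), against 2411 of all genes (14.2%), so the share was near that of the transcriptome. Itga1 and Tns3, which the rule that chose the set names, are among the 7, so this share is not independent of the choice. Higher under the knockout label were 3 of these 7, and 4 were lower, where 6.92% and 7.23% of all genes were. Limma voom with sample quality weights, run on recovered reads, called 4 of the set (Itga1, Itga6, Itga7 and Tns3) among 303 genes.

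Itga1 (ENSMUSG00000042284; mm10 chromosome 13, 114953096 to 115101964, minus strand) encodes the alpha chain of a collagen receptor that favours type IV collagen. Libraries 1, 2 and 3 of the wild type label held 1157, 1154 and 1003 normalized counts of it, and those of the knockout label 3147, 2292 and 2477. The groups did not overlap, and the lowest library labelled knockout was about as far above the highest labelled wild type as that one was above 0. Means of 1105 ± 87.7 (SD, n = 3) and 2639 ± 450.0 (SD, n = 3) gave a log2 change, knockout minus wild type label, of 1.25 (SE 0.14, 95% interval 0.91 to 1.58) with an unadjusted p of 3.92e-05 in limma, which ranked 7th lowest of all genes tested. Pelo, which lies inside the Itga1 gene on the same strand and shares 0 exon bases with it, had a log2 change of 0.35 (SE 0.16). Another gene model, Gm49395, shares 685 exon bases with Itga1 and was not among the listed genes.

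The other collagen-binding alpha chains had log2 changes below 0, none with an unadjusted p under 0.05, against 14.2% of all genes. Itga2, also on chromosome 13 (114833081 to 114932100), is best known from platelets and epithelia. It was at 21.6, 21.5 and 18.8 under the wild type label and 15.6, 13.4 and 14.8 under the knockout label, which was 9 to 33 reads per library. These values did not overlap, but the log2 change of -0.47 (SE 0.28) had an unadjusted p of 0.137 in limma. Itga10, a collagen receptor chain of cartilage, was at 81.3, 66.5 and 60.5 against 43.3, 51.8 and 50.4, without overlap (log2 change -0.50, SE 0.23; unadjusted p = 0.0642). Itga11, one of fibroblasts, was at 38.2, 45.6 and 59.7 against 19.0, 26.8 and 45.9, with overlap (log2 change -0.69; unadjusted p = 0.105).

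Of the 5 laminin-binding chains, Itga6 and Itga7 (higher) and Itgb4 (lower) had an unadjusted p under 0.05, against 14.2% of all genes. After adjustment 0 of them were called. Itga7 (chromosome 10, 128933818 to 128958282), the main laminin receptor chain of differentiated muscle, was at 108, 78.9 and 102 under the wild type label and at 272, 316 and 512 under the knockout label. Every value under the knockout label was more than double any value under the other label, at means of 96.3 ± 15.4 (SD, n = 3) and 366 ± 128 (SD, n = 3). The log2 change was 1.88 (SE 0.27, 95% interval 1.24 to 2.51; limma unadjusted p = 0.000179, adjusted p = 0.127). Among the 6 skeletal muscle markers 5, namely Myod1, Myog, Myf5, Pax7 and Ckm, were under the filter in these libraries, and each was at 0 in at least 1 of them. The 6 summed to 64.5 to 115 under the wild type label and 33.1 to 65.2 under the knockout label.

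Itga6 (chromosome 2, 71745616 to 71858416), the laminin receptor chain shared by stem cells, epithelia and endothelium, was at 1479, 1421 and 2263 under the wild type label and at 2967, 2986 and 2742 under the knockout label. The groups did not overlap, with library 3 labelled wild type the nearest to the other label, at means of 1721 ± 471 (SD, n = 3) and 2898 ± 136 (SD, n = 3). The log2 change was 0.78 (SE 0.18; limma unadjusted p = 0.00319, adjusted p = 0.225). Itgb4 (chromosome 11, 115974709 to 116008412), which pairs only with Itga6 and anchors epithelial hemidesmosomes, was at 216, 214 and 131 against 86.5, 84.0 and 133. The groups overlapped through library 3 of each label, at means of 187 ± 48.5 (SD, n = 3) and 101 ± 27.3 (SD, n = 3). The log2 change was -0.88 (SE 0.28; limma unadjusted p = 0.0164, adjusted p = 0.287).

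Itgb4 and Itgb6 are chains of epithelia, so epithelial markers were set beside them. All 8 markers on that list had a negative log2 change, as had 48.2% of all genes. Of the 8 markers 5 had an unadjusted p under 0.05 in limma, against 14.2% of all genes. Their summed values ranged from 8718 to 13313 under the wild type label and from 5865 to 16072 under the knockout label, the last in library 2, and none was at 0 in any library. The libraries did not all match. In library 2 labelled knockout, with the highest marker sum, Itgb4 was the lowest of the 6 (84.0). In library 3 labelled wild type, with the lowest sum of its label, Itgb6 was the highest of the 6 (59.7). Library 1 labelled wild type had a sum of 13313 and the highest Itgb4 (216). Library 1 labelled knockout had a sum of 5865 and the lowest Itgb6 (3.46). The part of epithelial cells in the Itgb4 and Itgb6 values was not tested. Itgb6 (chromosome 2, 60598292 to 60722643), the beta chain of an epithelial receptor that activates latent TGF-beta, was at 19.9, 18.2 and 59.7 against 3.46, 12.5 and 11.1. These were 2 to 76 reads per library, and Itgb6 was the single gene of the set with a library under 10. The groups did not overlap, with library 3 labelled wild type far above the other 5, at means of 32.6 ± 23.4 (SD, n = 3) and 9.03 ± 4.87 (SD, n = 3). The log2 change was -1.69 (SE 0.61, 95% interval -3.13 to -0.25; limma unadjusted p = 0.0274, adjusted p = 0.303).

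Itga3, the remaining laminin-binding alpha chain, was at 954, 937 and 1242 under the wild type label and at 398, 1318 and 833 under the knockout label. The groups overlapped, since library 2 labelled knockout was the highest and library 1 the lowest of all 6.

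Itga4 (chromosome 2, 79255426 to 79333123) pairs with beta 1 to bind fibronectin and Vcam1, and the epicardium depends on it in development. Its values were 2506, 2457 and 3085 under the wild type label and 1199, 1894 and 1678 under the knockout label. No library of one label reached into the range of the other, at means of 2683 ± 349 (SD, n = 3) and 1590.4 ± 356 (SD, n = 3). The log2 change was -0.77 (SE 0.19, 95% interval -1.21 to -0.34; limma unadjusted p = 0.00384, adjusted p = 0.226). Its ligand gene Vcam1 was at 979, 955 and 3352 against 578, 447 and 950.3, a log2 change of -1.22 (SE 0.51; unadjusted p = 0.0457), named here after its values were seen. Itga4 shares 1124 exon bases with Cerkl on the opposite strand, which was at 9.63 to 16.3 in all libraries.

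**Figure D1:**
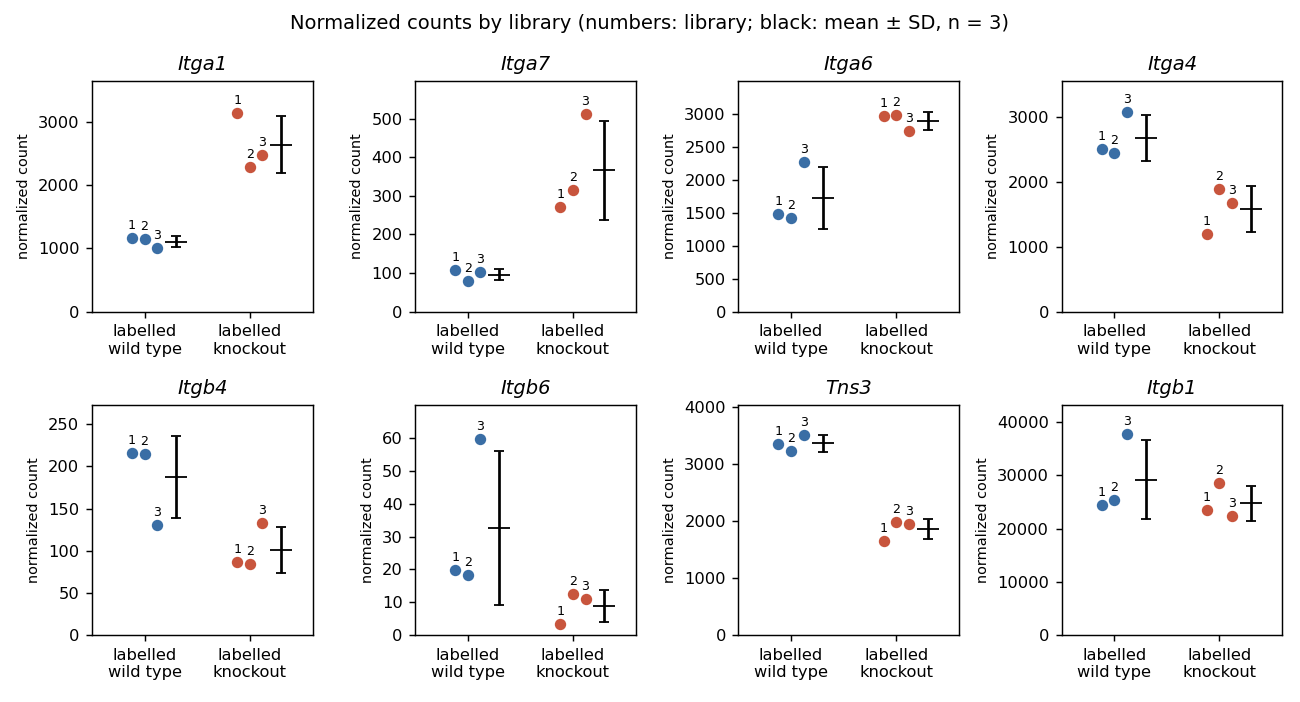
Normalized counts (vertical axes, each from 0) of the 7 genes with an unadjusted p under 0.05 in limma and of Itgb1, in 3 libraries labelled wild type (blue) and 3 labelled knockout (red), numbered by library, with the mean ± SD in black. Itga1, Itga7 and Itga6 lie wholly above the wild type label, Itga4, Itgb6 and Tns3 wholly below it, while Itgb4 and Itgb1 overlap.

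The receptors for RGD-bearing ligands such as fibronectin and vitronectin overlapped between labels in 8 of 9 chains. The other was Itgb6, which alone among them had an unadjusted p under 0.05. That is 11.1% of the 9 by either rule, against 23.6% of all genes without overlap and 14.2% at that p. With so few chains these shares cannot be told apart. Itga5, the fibronectin receptor chain, was at 1324, 1339 and 848 against 1313, 1407 and 1276. Library 3 labelled wild type was below the other 5, which were close together. Itgav, which pairs with several beta chains, was at 4808, 5178 and 7694 against 6012, 5644 and 5511, a log2 change of -0.01 (95% interval -0.43 to 0.41). Itga8, a receptor chain for nephronectin and fibronectin, was at 3749, 3708 and 5212 against 2467, 4145 and 3968, and Itga9, which binds tenascin and other ligands, at 3811, 3763 and 2553 against 2439, 2876 and 2694. Both overlapped between labels.

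Of the beta chains, Itgb1 (chromosome 8, 128685654 to 128733200), the common partner of most alpha chains, was by far the most abundant. Its values were 24426, 25367 and 37775 under the wild type label and 23547, 28520.5 and 22339.9 under the knockout label, a log2 change of -0.21 (95% interval -0.67 to 0.24). Itgb5, a vitronectin receptor chain, was at 4373, 4221 and 4246 against 3941, 4533 and 4219.7, all within a 1.15-fold range, and its log2 change of -0.02 had a 95% interval of -0.24 to 0.20. Itgb8, the beta chain of a receptor that binds latent TGF-beta, was at 569, 599 and 1153 against 462, 687 and 338, with overlap. With a term for the 3 libraries that carry Diff9 in their titles, Itgb8 had a log2 change of -0.91 (limma unadjusted p = 0.0027) and Itgb1 one of -0.35 (unadjusted p = 0.047), against unadjusted p of 0.109 and 0.308 without it. All 8 beta chains had a log2 change below 0, as had 48.2% of all genes, and 2 of them had an unadjusted p under 0.05, against 14.2% of all genes. The sign was not stable in Itgb2, Itgb3 and Itgb5, whose log2 changes reached 0.23, 0.14 and 0.03 with a library left out. The untransformed mean of Itgb2 was higher under the knockout label (76.6) than under the wild type label (48.3). The other beta chains stayed below 0 over left-out libraries.

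The chains of blood cells overlapped between labels. Itga2b, the platelet fibrinogen receptor chain that early blood progenitors also make, reached 1162 and 1098 normalized counts in the first 2 libraries of the wild type label but 132 in library 3. Under the knockout label it was at 119, 520.2 and 244, and its log2 change of -1.15 had a 95% interval of -3.25 to 0.94. Its partner Itgb3 was at 1831, 1828 and 718 against 841, 1627 and 1341. Itgb2, the shared beta chain of leukocyte integrins, was at 46.5, 60.6 and 37.7 against 12.1, 203 and 14.8, so that library 2 labelled knockout stood above the other 5. Itgb7, another leukocyte chain, was at 19.0 to 44.8 with overlap.

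Itgam, a leukocyte alpha chain that pairs with Itgb2, was likewise highest in that library, at 391 against 13.8 to 133 in the other 5. The 10 leukocyte and platelet markers, of which Itgb2 itself is 1, summed to 1346 to 3501 under the wild type label and 225 to 3952 under the knockout label, and Spi1 and Gp1bb were at 0 in 1 library, that of replicate 1 labelled knockout. Endothelial markers summed to 3885 to 14909 and 8490 to 12977, lowest in library 3 labelled wild type, where Itga2b and Itgb3 were low too. Other libraries differed: Itga2b was lower still in library 1 labelled knockout (119), where these markers summed to 8490. In library 3 labelled knockout it was at 244 and they summed to 12527. The leukocyte and platelet sum in library 3 labelled wild type was 3501, the highest of that label. The part of such cells in these values was not tested.

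**Figure D2:**
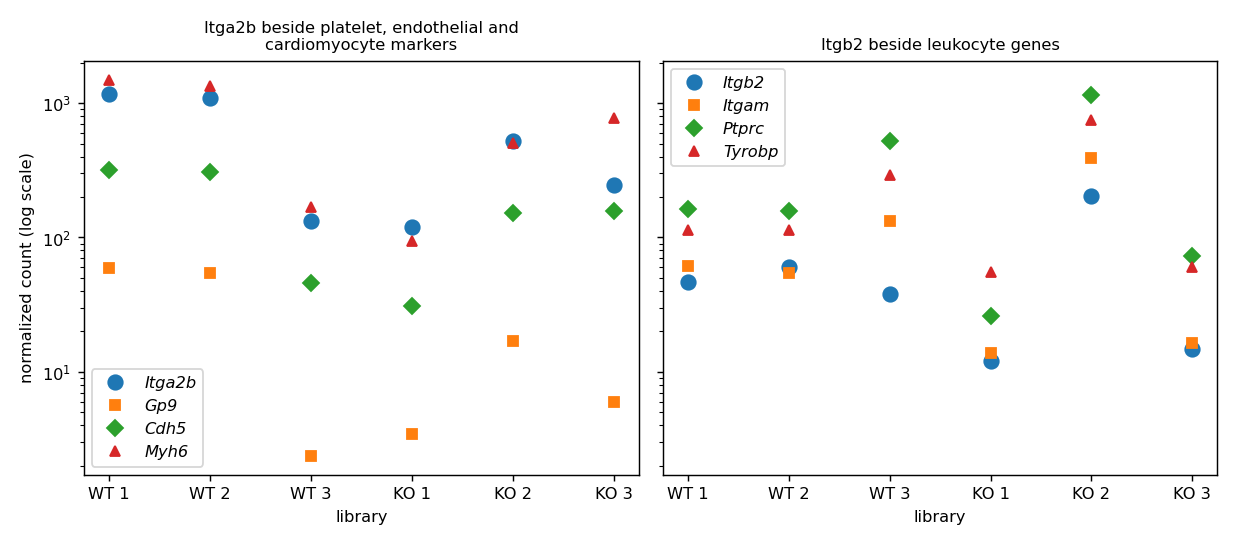
Normalized count on a log axis in each library (WT, labelled wild type; KO, labelled knockout) of Itga2b beside the platelet gene Gp9, the endothelial gene Cdh5 and the cardiomyocyte gene Myh6 (left), and of Itgb2 beside the leukocyte genes Itgam, Ptprc and Tyrobp (right). The genes shown beside them were picked after their values were seen. Itga2b was 1162 and 1098 in WT 1 and WT 2 and 119 in KO 1, and Itgb2 reached 203 in KO 2.

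Levels can be set beside each other only per length, and were taken as normalized counts per kilobase of exon. On this scale Itgb1 averaged 7153 under the wild type label and 6078 under the knockout label, followed by Lims1 (1225 and 1311), Itgb5 (1205 and 1191), Tln1 (1182 and 1117) and Fermt2 (911 and 1033). Itgb1 made up 78.3% to 86.3% of the beta chain total in each library. The beta chains summed to 6960 to 10727 per kilobase and the alpha chains to 2201 to 2733. By the means on this length, Itgav, Itga8 and Itga9 were the highest alpha chains under both labels, though in library 1 labelled knockout Itga6 (14.9% of the alpha chain total) was above Itga9 (14.4%).

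Shares of the alpha chain total carry the same values on another scale. Itga1 took 2.29% ± 0.27 (SD, n = 3) of the alpha chain total under the wild type label and 5.85% ± 1.64 (SD, n = 3) under the knockout label. Itga6 went from 7.27% ± 1.66 (SD, n = 3) to 13.1% ± 1.59 (SD, n = 3), and Itga4 from 7.35% ± 0.64 (SD, n = 3) to 4.57% ± 0.59 (SD, n = 3). The mean share of Itga2b was 5.73% ± 4.2 (SD, n = 3) and 2.10% ± 1.28 (SD, n = 3), with overlap. Those of Itga9 were 17.0% and 14.1%, of Itga8 21.9% and 19.2%, of Itga5 9.17% and 10.99%, and of Itga7 0.456% and 1.83%. With the longest annotated transcript as the length, a choice added after the data were seen, Itga1 took 2.83% and 6.89%, and Itga6, at 19.1% under the knockout label, came second there after Itgav (23.1%).

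**Figure D3:**
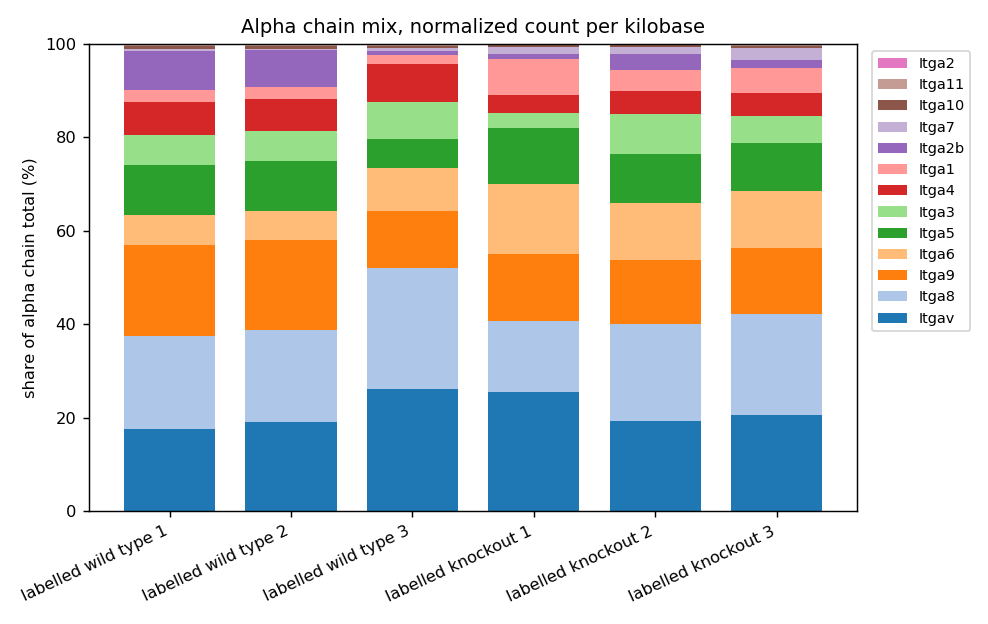
Share of each alpha chain in the total of all 13, from normalized counts per kilobase of exon, as stacked bars for the 6 libraries. The shares of Itga1 and Itga6 are larger in the 3 libraries labelled knockout (Itga1 4.53% to 7.69%) than in the 3 labelled wild type (1.97% to 2.44%), and that of Itga2b is largest in libraries 1 and 2 labelled wild type.

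Inside the cell, Tns3 alone of the 16 adaptors had an unadjusted p under 0.05 (6.25%, against 14.2% of all genes). Tns3 (ENSMUSG00000020422; chromosome 11, 8431652 to 8664535, minus strand) encodes a tensin, which binds beta chain tails and actin. Libraries of the wild type label held 3346, 3220.3 and 3512 normalized counts of it, and those of the knockout label 1654, 1984 and 1941. The values within each label were close together and the ranges lay far apart. Means of 3359 ± 146 (SD, n = 3) and 1860 ± 180 (SD, n = 3) gave a log2 change of -0.86 (SE 0.11, 95% interval -1.11 to -0.61; limma unadjusted p = 7.07e-05, adjusted p = 0.118), the 9th lowest p of all genes tested. The other tensins overlapped between labels: Tns1 was at 4581, 4557 and 2758 against 3965, 2360 and 4644, and Tns2 at 456, 454 and 323 against 363, 239 and 409.

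The other 15 adaptors had log2 changes between -0.33 and 0.63. In limma 0 of them had an unadjusted p under 0.05, against 14.2% of all genes. With so few genes these shares cannot be told apart. Tln1, the talin that activates integrins, was at 12018, 11767 and 10962 against 10083, 10887 and 11884, a log2 change of -0.08 (95% interval -0.33 to 0.16). Vcl, vinculin, which ties talin to actin, was at 5182, 4956 and 6277 against 4901, 5416 and 5472, one of -0.05 (-0.33 to 0.23). Both overlapped between labels. Fermt2, the kindlin of most tissues, was at 4642, 4852 and 4698 against 5490, 5449 and 5151. Its libraries did not overlap between labels, at a log2 change of 0.18 (SE 0.09; unadjusted p = 0.0738).

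Scaffold and kinase genes had intervals that included 0. The log2 change of Pxn, paxillin, was 0.09 (-0.20 to 0.38), that of Ptk2, focal adhesion kinase, 0.16 (-0.13 to 0.44), and that of Bcar1, the scaffold p130Cas, 0.05 (-0.26 to 0.36). Lims1, the LIM protein PINCH, was at 5363, 5681 and 6938 against 6129.8, 7355 and 5746, a log2 change of 0.10 (-0.23 to 0.43), and Parva, a parvin that joins it in one complex, had one of -0.13 (-0.50 to 0.25). For the mechanosensitive LIM proteins Zyx and Tgfb1i1 the changes were 0.15 and -0.00. Tln2, the talin of striated muscle costameres, was at 4201, 3927 and 2126 against 5683, 3614 and 4364, and Parvb, a parvin of heart and skeletal muscle, at 261, 262 and 82.4 against 332, 268 and 239. In both, library 3 labelled wild type was the lowest of the 6.

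Ilk, the pseudokinase that binds parvin and PINCH, was listed at 13.4 to 38.2 in the 6 libraries, or 11 to 42 reads. Of its 2744 exon bases, 2106 are shared with Taf10 and 355 with Rrp8, both on the opposite strand and at 480.5 to 656 and 909.9 to 1254. Whether strand was used in counting, and how reads in shared bases were assigned, is not stated in the labels or files, so the low value cannot be read as a low level of Ilk. Vcl shares 2090 exon bases with Ap3m1, and Itga10 shares 1739 with a gene model that was not among the listed genes.

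**Figure D4:**
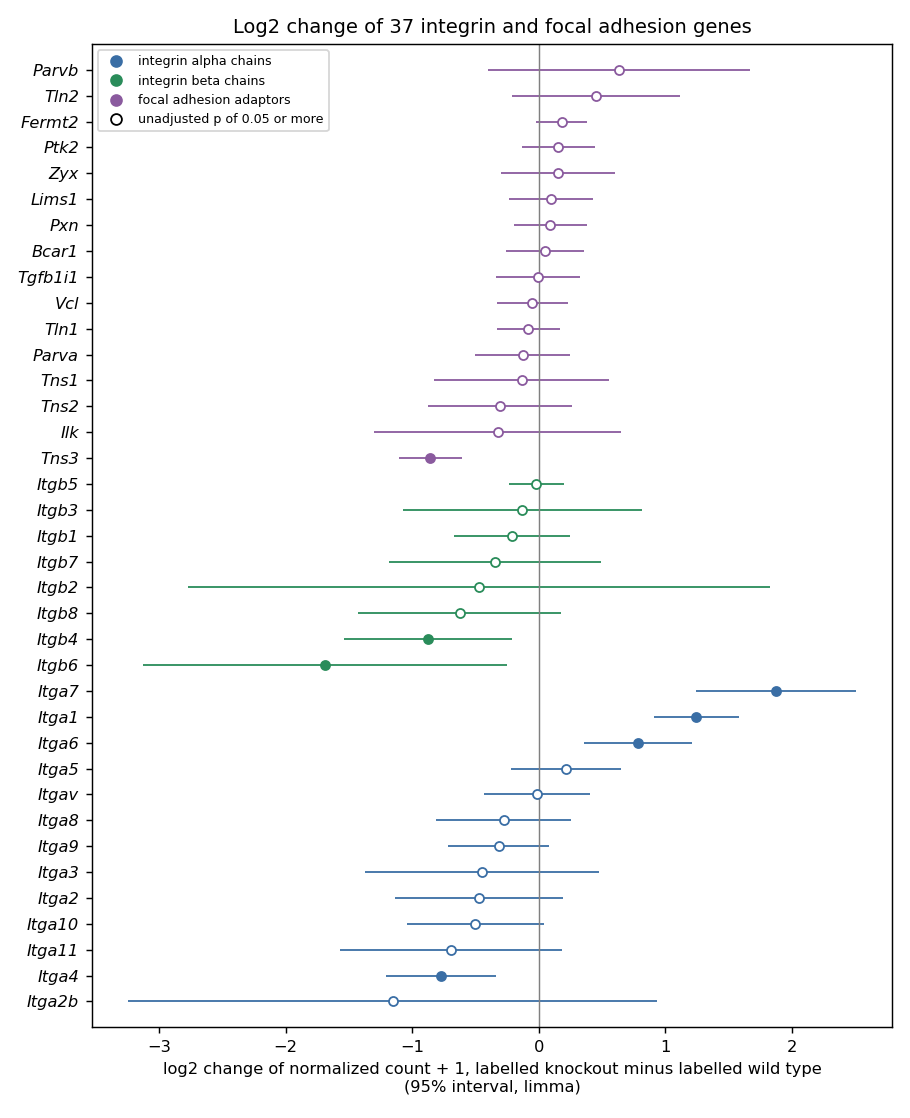
Log2 change (labelled knockout minus labelled wild type, on log2 of the normalized count + 1) with its 95% interval from limma for all 37 genes, by role. Filled points have an unadjusted p under 0.05: Itga1, Itga6 and Itga7 to the right, Itga4, Itgb4, Itgb6 and Tns3 to the left. The other 15 adaptors lie between -0.33 and 0.63.

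Over the whole set 12 genes had a positive and 25 a negative log2 change, with a median of -0.13 against 0.01 over all genes tested. Alpha chains had a median of -0.32, beta chains -0.41 and adaptors 0.02. Among the 21 integrin chains 6 had an unadjusted p under 0.05 (28.6%), and among the 16 adaptors 1 (6.25%), against 14.2% of all genes. Itga1 is among these 6 and Tns3 is the 1, and the rule that chose the set names both. The difference between these shares was not tested. The 37 genes together held 0.413% to 0.493% of each library's total.

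Single libraries set part of the spread. Library 3 labelled wild type was the highest or the lowest of the 6 in 19 of the 37 genes, and library 1 labelled knockout in 21. Over all genes tested these shares were 52.2% and 47.9%, against 51.4% and 56.8% in the set. Library 3 labelled knockout carries Diff9 in its title, as do libraries 1 and 2 labelled wild type, and what this number marks is not stated. Within these 3 libraries, a comparison added after the data were seen and without a test, the 7 genes kept their direction. For all but Itgb4 this was fixed in advance, since their groups did not overlap, so only the sizes are informative. The log2 differences were 1.10 for Itga1, 2.46 for Itga7, 0.92 for Itga6 and -0.56 for Itga4. For Itgb4, Itgb6 and Tns3 they were -0.69, -0.73 and -0.76.

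Beyond the set, 59 other genes of focal adhesions were all tested. At an unadjusted p under 0.05, 5 were higher and 1 was lower under the knockout label (10.2% together, against 14.2% of all genes), 0 were called after adjustment, and the median log2 change was 0.08. Ptk2b, the kinase Pyk2, was at 276, 273 and 246 against 396, 749 and 404, a log2 change of 0.90 (SE 0.26; limma adjusted p = 0.253). Evl, an actin polymerization factor, had a log2 change of 0.53 (SE 0.15), Csrp1, a LIM protein of smooth muscle and actin bundles, one of 0.31 (SE 0.12), and Palld, palladin, one of -0.47 (SE 0.16). These genes were named for the lowest p on the list, and their libraries did not overlap between labels. Of the 59 genes 12 (20.3%) were without overlap, against 23.6% of all genes.

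Integrin ligands were tested as well. Of 33 matrix and surface ligands 11 were lower and 2 higher at an unadjusted p under 0.05, against 7.23% and 6.92% of all genes. None (0) was called after adjustment, and the median log2 change was -0.36. Col1a1, a type I collagen chain, had a log2 change of -1.32 (SE 0.25), its partner Col1a2 one of -1.92 (SE 0.42), the type VI chain Col6a3 one of -1.81 (SE 0.46) and the growth factor gene Tgfb3 one of -1.62 (SE 0.34), with limma adjusted p of 0.183 to 0.231. Lama1, the laminin chain of early basement membranes, was the opposite, at 5280, 5075 and 3039 against 6317, 6584 and 7285 (log2 change 0.63, SE 0.21; adjusted p = 0.289). The other ligand in that direction was Mfge8, a secreted RGD protein, at 0.41 (SE 0.12). Both were singled out after their values were seen.

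The collagens on this list are also markers of fibroblasts and mesenchyme, whose 10 genes summed to 372913 to 583884 under the wild type label and 180341 to 279061 under the knockout label, with none at 0. Of the 9 that were tested 5 were lower and 1, Twist1, higher at an unadjusted p under 0.05. Over all genes these shares were 7.23% and 6.92%. Smooth muscle markers summed to 44670 to 51085 and 40206 to 50555. Of these 6 genes 3 were lower and 0 higher by the same rule, with a median log2 change of -0.47. The part of such cells in the values of Itga1, Itga4 and Tns3 was not tested.

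**Figure D5:**
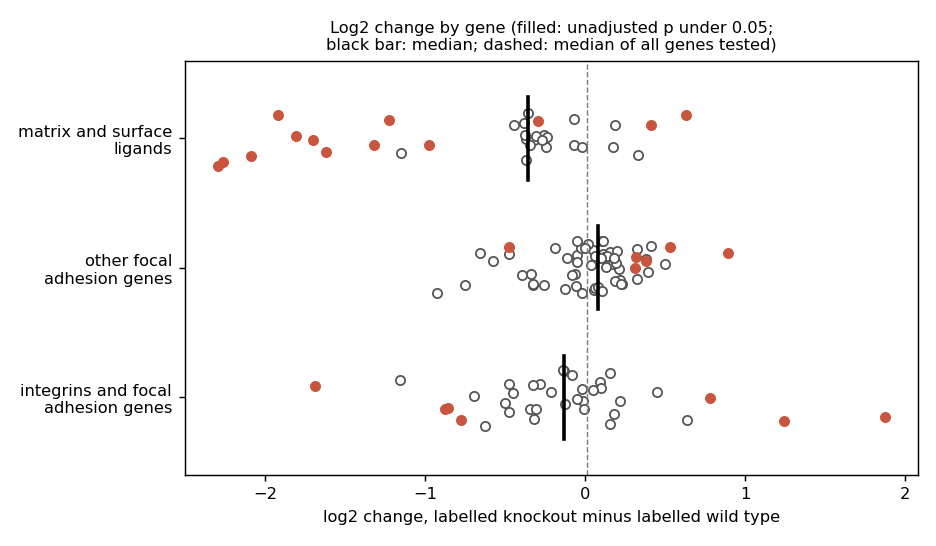
Log2 change of each tested gene (horizontal axis) for the 37 integrin and focal adhesion genes, 59 other focal adhesion genes and 33 ligand genes, with vertical scatter for legibility, filled at an unadjusted p under 0.05, a black bar at each median (-0.13, 0.08 and -0.36) and a dashed line at the median of all genes tested (0.01). Most filled ligand points lie to the left.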

How the data were processed

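The authors deposited normalized gene-level read counts, 1 table per library. Build mm10 and, with no role stated, DESeq2 1.14.0, HTSeq, BWA and CASAVA 1.8.2 are named per the submitters' processing notes. Dividing a library's values by its smallest step gave whole reads (100% within 0.1 reads). Positions and exon lengths came from GENCODE M21 (GRCm38). Values were tested as log2(value + 1) with limma 3.58.1 in R 4.3.3 (trend, two-sided, Benjamini-Hochberg over 17034 genes), and a fold change on this scale understates changes of low genes. Means, folds and SDs are of the untransformed values. The fit was tested on simulated data. Alternatives covered the pseudocount, the filter, scaling, voom, left-out libraries, libraries 1 and 2 labelled wild type averaged, and a Diff9 term.

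The genes and lists were chosen with earlier results of these data known. Genes named with full statistics were Itga1, Tns3 and up to 12 of lowest p, with library values also for the 4 highest per kilobase of each role, and up to 4 of lowest p from each other list. Motif matches are descriptions of letters.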

Additional observations from a re-analysis of the deposited data

How the results depend on the processing

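With 3 libraries per label, and 13504683 reads in the shallowest, genes such as Itga2, Itgb6 and Ilk rest on few reads. The edgeR and DESeq2 alternatives on recovered reads were not run. No member was called after adjustment except by voom (4, of 303 genes) and without library 2 labelled knockout (1, Itga1, adjusted p = 0.0413; 51 genes). Over left-out libraries the calls ranged from 0 to 1 in the set and 0 to 51 over all genes, and without a filter 2 genes were called, 0 of them in the set. The 3 higher genes had an unadjusted p under 0.05 in all 15 alternatives run, as did Itga4 and Tns3. Itgb4 lost it in 5 and Itgb6 in 3 of its 14. The 4 lower genes became 2 to 6 over left-out libraries (2 without library 1 labelled knockout, where Itgb4 and Itgb6 lost it; the cause was not tested), and the 9 without overlap became 9 to 19 (19 without library 3 labelled wild type, 15 and 14 without libraries 2 and 3 labelled knockout). Fewer samples overlap less by construction: the share over all genes went from 23.6% to 41.8%, 37.6% and 35.3% in these settings. The Diff9 term left 3 higher and 6 lower, adding Itgb1 and Itgb8. Itga11 turned to 0.13 in the Diff9 libraries alone. Adjusted p of Itga1 ranged from 0.00642 to 0.514, and those of Tns3 from 0.0096 to 0.514. Scaling to library totals or upper quartiles shifted the median of all genes to -0.02 and -0.05.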
